A study of Homo sapiens with 12 samples.

Results

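The genes described here are 42 that build the centromere and kinetochore or run the spindle checkpoint. They were taken by name from a fixed list, with no cut on measured values, although the list was chosen with earlier results of these data known. They were matched by Ensembl gene identifier to 42 of the 60483 gene rows of the deposited tables. The RNA came from MCF10A, an immortalised, non-transformed human mammary epithelial line, transduced with a Tet-inducible TAZ-4SA. TAZ, the protein of WWTR1, is a transcriptional co-activator held back by the Hippo kinases, and TAZ-4SA is an activated form in which serines that those kinases phosphorylate are replaced by alanine. Cells were kept without doxycycline (No Dox) or in 0.05 µg/mL doxycycline (Dox) for 24, 48 or 72 h, and each of these 4 groups held 3 libraries. All groups carried the construct and were grown in the same medium with horse serum, EGF, hydrocortisone, cholera toxin and insulin. No library came from cells without the construct given Dox, or from No Dox cells kept alongside to each later time, so the effects of TAZ-4SA, Dox and time in culture cannot be told apart. The labels leave unsaid whether replicates came from separate cultures, so the p-values refer to the spread among these libraries, and that spread may be technical.

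The centromere is the chromatin on which each chromosome is held by the spindle, and it is marked by nucleosomes that carry the histone variant CENP-A. On this chromatin sits the constitutive centromere-associated network (CCAN), which recruits the MIS12 and NDC80 complexes, and NDC80 binds the ends of microtubules. Where kinetochores lack attachments, the kinases TTK and BUB1 and the MAD and BUB proteins delay anaphase, and the chromosomal passenger complex removes faulty attachments. Many of these genes are transcribed mainly in G2 and mitosis. Their promoters often hold a cell cycle genes homology region (CHR), which recruits the MuvB complex with B-MYB and FOXM1 or, in quiescent cells, the repressive DREAM complex, together with CCAAT boxes, which bind NF-Y.

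Promoter sequence was read from RefSeq windows on GRCh38.p14 that run from 250 bases before to 50 bases after a transcription start. Of the 42 genes, 35 had at least 1 window and together had 39. BIRC5, BUB3, CENPH, CENPL, CENPM, MIS18A and TTK had none. The CHR was searched as TTTGAA or TTCGAA and the CCAAT box as CCAAT, both on either strand. The 7 stretches below run from 130 bases before to 10 bases after the start. Capitals mark the CHR and the CCAAT box as they read in the direction of transcription, so that a CCAAT box on the other strand appears as ATTGG and a CHR as TTCAAA. The stretches were picked after the levels were seen, to set 5 genes that rose beside CENPC, which did not pass the test at 24 h, and MAD1L1, which rose by less than 2-fold. They lie at chr1:37692386-37692525, plus strand (CDCA8), chr10:56361250-56361389, minus strand (ZWINT), chr2:110678054-110678193, minus strand (BUB1), chr2:26785926-26786065, plus strand (CENPA), chr13:21176543-21176682, minus strand (SKA3), chr4:67545494-67545633, minus strand (CENPC) and chr7:2232936-2233075, minus strand (MAD1L1).
CDCA8: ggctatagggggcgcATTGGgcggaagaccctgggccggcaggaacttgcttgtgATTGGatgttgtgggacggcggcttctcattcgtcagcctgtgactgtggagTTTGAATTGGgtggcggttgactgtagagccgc
ZWINT: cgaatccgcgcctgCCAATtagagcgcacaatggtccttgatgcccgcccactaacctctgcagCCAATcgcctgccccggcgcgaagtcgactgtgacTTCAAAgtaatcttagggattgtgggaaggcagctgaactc
BUB1: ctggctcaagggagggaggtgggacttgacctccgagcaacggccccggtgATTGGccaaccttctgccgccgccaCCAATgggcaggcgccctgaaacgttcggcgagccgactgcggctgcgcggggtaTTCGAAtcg
CENPA: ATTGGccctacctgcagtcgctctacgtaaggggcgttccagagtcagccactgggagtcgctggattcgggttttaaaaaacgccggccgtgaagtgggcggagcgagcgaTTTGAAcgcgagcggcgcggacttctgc
SKA3: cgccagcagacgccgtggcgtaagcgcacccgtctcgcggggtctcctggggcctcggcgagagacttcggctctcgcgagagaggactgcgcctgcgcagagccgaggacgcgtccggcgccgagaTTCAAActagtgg
CENPC: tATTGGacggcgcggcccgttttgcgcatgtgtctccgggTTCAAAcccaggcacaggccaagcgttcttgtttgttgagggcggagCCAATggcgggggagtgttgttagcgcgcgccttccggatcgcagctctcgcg
MAD1L1: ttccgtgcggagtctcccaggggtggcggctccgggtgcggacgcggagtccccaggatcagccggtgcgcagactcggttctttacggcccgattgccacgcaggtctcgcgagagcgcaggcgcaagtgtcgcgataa

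In CDCA8 the CHR began 23 bases before the start and shared its last base with the CCAAT box beginning at 18 bases before it. The CHR began at 18 bases before the start in CENPA, at 3 in SKA3 and at 90 in CENPC, while in BUB1 it began on base 2, counting the start as base 1. MAD1L1 showed neither motif in its window. Over the 39 windows of these genes, 21 (53.8%) held a CHR, against 16.4% of all 35116 promoter windows. A CCAAT box was present in 25 (64.1%), against 34.6% of all windows, and both motifs were present in 15 (38.5%), against 6.38%. An E2F element (TTTCCCGC or TTTGGCGC) was found in 2 windows (5.13%), against 2.27% of all windows. The TEAD motif GGAATG was found in 6 windows (15.4%), against 14.0%, and the AP-1 motif TGANTCA in 0, against 7.71%. These shares describe letters in the windows and were not tested, and windows of 1 gene can overlap.

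The libraries held between 15382564 and 26570132 expected counts. A total of 14822 genes passed the filter on low counts, all 42 among them. WWTR1, which covers both the cells' own gene and the transgene where their sequences match, was at 69.5 to 75 CPM without Dox and at 763 to 1061 CPM in the 9 Dox libraries, so no library went against its label. CPM are counts scaled to a common library size with TMM factors. Mammary epithelial markers summed to 8100 to 8670 CPM without Dox, with 10 of 10 markers present, and to 5490 to 6180, 6580 to 7050 and 7280 to 7940 CPM at 24, 48 and 72 h. Of these markers, luminal KRT8 and KRT18 went from means of 211 and 368 CPM without Dox to 2229 and 1920.0 CPM at 72 h. The basal markers KRT5, KRT17 and TP63 went from 3521, 2366 and 77.4 CPM to 1651, 600.4 and 1.49 CPM. LAMB3 also fell, from 1224 to 518.9 CPM. KRT14 and ITGA6 of the same list did not share this fall at 72 h. KRT14 was at 10.98 CPM without Dox, 21.24 CPM at 24 h and 10.22 CPM at 72 h. ITGA6 was at 312.9 CPM without Dox, 299 CPM at 24 h, 235.6 CPM at 48 h and 308.3 CPM at 72 h. The luminal hormone receptor genes ESR1 and PGR summed to at most 0.572 CPM in any library, with PGR at 0. Summed markers of fibroblasts went from 54.5 to 56.4 CPM without Dox to between 1.91 and 4.9 CPM in Dox, with 3 of 7 at 0 in every library, and most of that sum was DCN, at a mean of 50.1 CPM without Dox and 1.11 CPM at 24 h. Those of endothelium went from 36.6 to 37.9 CPM to between 1.88 and 13.4 CPM, most of it KDR at means of 27.6 CPM without Dox and 0.294 CPM at 24 h, with CDH5 at or near 0. The part of these shifts in the results below was not tested.

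The first question was how many of the 42 genes differed from No Dox at each time. A gene was called at an adjusted p under 0.05 (edgeR's quasi-likelihood test with Benjamini-Hochberg adjustment over the 14822 genes) and a fold of 2 or more. At 24 h 35 of the 42 genes were called higher and 0 lower, while 12% of all genes tested were called higher and 17.7% lower. The count was 35 higher and 0 lower at 48 h, where 10.6% and 14.4% of all genes were called higher and lower. It was 33 higher and 0 lower at 72 h, beside 10.2% and 12.3% of all genes. The median log2 fold change of the 42 genes was 1.77, 1.71 and 1.49 at 24, 48 and 72 h, and that of all genes tested was -0.03, -0.01 and -0.02. Library by library, the median log2 ratio of these genes to the No Dox mean was 1.75 to 1.83 in the 24 h libraries, 1.69 to 1.71 in the 48 h libraries and 1.46 to 1.58 in the 72 h libraries. The 3 comparisons share the No Dox libraries. In bulk RNA, a larger share of cells that express these genes and more of their RNA per cell cannot be told apart.

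**Figure D1:**
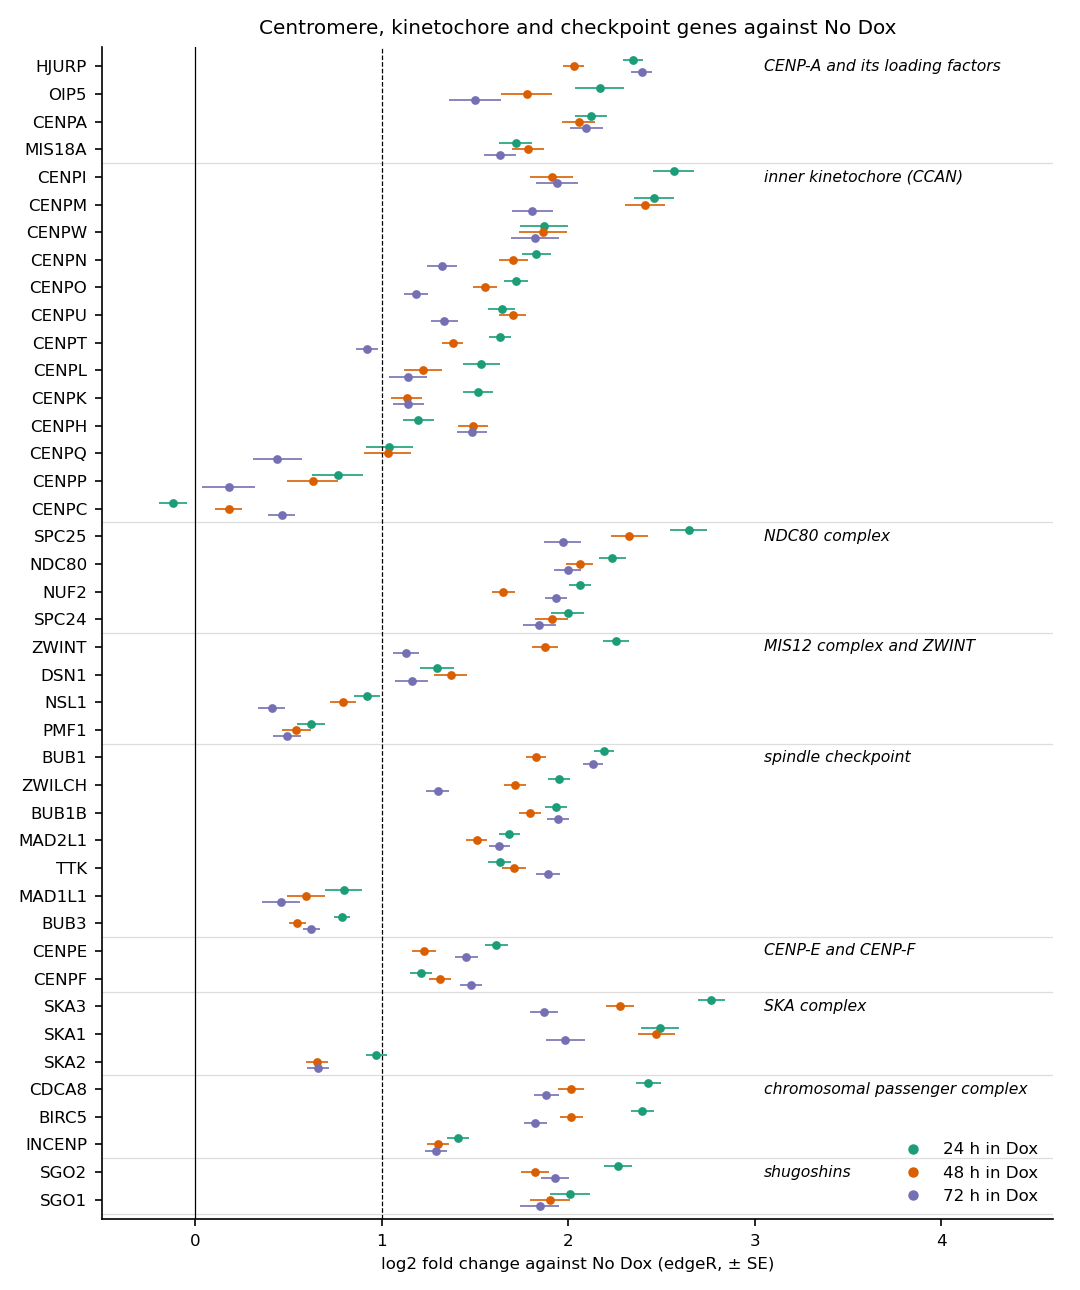
Log2 fold change of each of the 42 genes against No Dox (x axis, edgeR, bars are ± 1 SE) at 24, 48 and 72 h in Dox, ordered within functional groups by the value at 24 h. The dashed line marks a 2-fold rise, and at 24 h 35 genes lie to its right with SKA3 the farthest at 2.77, while CENPC lies at -0.12.

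Genes that build CENP-A chromatin rose together. All 4 (CENPA, HJURP, MIS18A and OIP5) were called higher at each time, with a median log2 fold change of 2.15, 1.91 and 1.87 at 24, 48 and 72 h. HJURP, the chaperone that deposits new CENP-A, held 20.5, 20.1 and 20.8 CPM without Dox, 104, 104 and 104 at 24 h, 84.5, 84.3 and 82.3 at 48 h and 103, 111 and 108 at 72 h. The 24 h and 72 h libraries overlapped and all lay above the 48 h libraries, which in turn lay above No Dox. The log2 fold change of HJURP reached 2.35 ± 0.0555 at 24 h (adjusted p = 3.5e-19), 2.03 ± 0.0558 at 48 h and 2.39 ± 0.0554 at 72 h. OIP5, a subunit of the MIS18 complex that licenses centromeres for loading, held 3.18, 3.16 and 3.4 CPM without Dox, 15, 16 and 12.8 at 24 h, 11.6, 9.88 and 12.2 at 48 h and 8.75, 10.3 and 8.77 at 72 h. Every Dox library lay above No Dox, and the 24 h libraries lay above those of both later times. It rose by a log2 fold change of 2.17 ± 0.132 at 24 h (adjusted p = 3.04e-12), which came down to 1.5 ± 0.138 at 72 h. CENPA itself went from 10.7 ± 1.29 CPM (SD, n = 3) without Dox to 46.9 ± 2.27, 44.7 ± 4.34 and 46 ± 0.652 CPM at the Dox times, with overlap between all Dox groups. MIS18A, another subunit of the licensing complex, was at 7.87 ± 0.387, 25.9 ± 2.01, 27.1 ± 0.942 and 24.4 ± 1.03 CPM.

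The CCAN genes, which form the largest of the 9 functional groups, spread most widely. Of 13, 11 were called higher at 24 and 48 h and 9 at 72 h, with median log2 fold changes of 1.63, 1.49 and 1.18. CENPI, a subunit of the branch that helps place new CENP-A, held 4.98, 5.18 and 6.5 CPM without Dox, 32.1, 36.6 and 30.1 at 24 h, 18.5, 22.5 and 21.9 at 48 h and 21.8, 20.9 and 21.4 at 72 h. The 24 h libraries lay above all others and the 48 h and 72 h libraries overlapped. Its log2 fold change was 2.57 ± 0.111 at 24 h (adjusted p = 9.08e-15), and the level at 48 h was lower than at 24 h by a log2 difference of -0.65 ± 0.0928 (adjusted p = 1.18e-05), the largest step of any of the 42 genes between these times. CENPM, of the same branch, held 6.08, 5.75 and 6.26 CPM without Dox, 31.9, 32.8 and 35.1 at 24 h, 35.4, 32.9 and 28.1 at 48 h and 23.7, 18.7 and 20.9 at 72 h. The 24 h and 48 h libraries overlapped and lay above the 72 h libraries. Its log2 fold change was 2.46 ± 0.107 at 24 h (adjusted p = 9.73e-15) and the difference between 72 and 48 h was -0.61 ± 0.0896 (adjusted p = 2.13e-05).

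CENPT, which links CCAN to the NDC80 complex directly, held 49.6, 49.6 and 50.5 CPM without Dox, 167, 149 and 148 at 24 h, 136, 126 and 128 at 48 h and 89.9, 97.1 and 96.7 at 72 h. The 4 groups did not overlap, and the order from high to low was 24 h, 48 h, 72 h and No Dox. Its log2 fold change was 1.63 ± 0.0584 at 24 h and 0.92 ± 0.0588 at 72 h, where it missed the fold threshold at an adjusted p of 9.37e-12. CENPQ, the partner of CENP-U in the CENP-O branch, held 4.61, 5.49 and 6.5 CPM without Dox, 11.4, 12.1 and 10.6 at 24 h, 11.1, 11.1 and 11.8 at 48 h and 8.31, 7.26 and 6.98 at 72 h. The 72 h libraries lay between the No Dox libraries and those of the earlier Dox times. The log2 fold change was 1.04 ± 0.126 at 24 h (adjusted p = 1.9e-07), just past the fold threshold, and 0.44 ± 0.131 at 72 h (adjusted p = 0.00524). Without the first No Dox library CENPQ was not called at 24 or 48 h, at log2 fold changes of 0.92 and 0.91, and without the second 24 h library it stood at 0.999 at 24 h, just short of the threshold.

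The 2 CCAN genes not called at 24 h were CENPC and CENPP. CENPC, the scaffold that binds CENP-A nucleosomes and holds the inner and outer kinetochore together, lies at ENSG00000145241, chr4:67468762-67545503, minus strand on GRCh38. It held 22, 24 and 21.6 CPM without Dox, 19.6, 21.2 and 21.2 at 24 h, 23.9, 25.8 and 26.8 at 48 h and 31.1, 31.7 and 30.3 at 72 h. The 24 h libraries were the lowest, the 48 h libraries overlapped No Dox and the 72 h libraries lay above all others. Against No Dox the log2 fold change came to -0.12 ± 0.0745 at 24 h (adjusted p = 0.151), 0.18 ± 0.0731 at 48 h (adjusted p = 0.0333) and 0.46 ± 0.0716 at 72 h (adjusted p = 7.15e-06), the last a 1.38-fold rise. Its printed promoter holds both a CHR and CCAAT boxes. CENPP, of the CENP-O branch, held 6.54, 7.33 and 4.98 CPM without Dox, 11.5, 9.51 and 10.8 at 24 h, 10.6, 9.27 and 9.08 at 48 h and 7.28, 6.2 and 7.55 at 72 h. The 24 and 48 h libraries lay above No Dox and the 72 h libraries overlapped it, with log2 fold changes of 0.76 ± 0.137 (adjusted p = 3.6e-05), 0.63 ± 0.138 (adjusted p = 0.00036) and 0.18 ± 0.142 (adjusted p = 0.269). The other CCAN genes, CENPH, CENPK, CENPL, CENPN, CENPO, CENPU and CENPW, were called higher at all 3 times, with log2 fold changes at 24 h from 1.2 for CENPH to 1.87 for CENPW.

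All 4 subunits of the NDC80 complex, which makes the main grip on microtubules, were called higher at all 3 times, with medians of 2.15, 1.99 and 1.95. SPC25 held 5.48, 4.48 and 4.43 CPM without Dox, 30, 29 and 31.8 at 24 h, 24.3, 25.7 and 22.6 at 48 h and 17.9, 19.3 and 19.6 at 72 h. The 4 groups did not overlap, and the log2 fold change was 2.64 ± 0.0979 at 24 h (adjusted p = 6.67e-16), a 6.25-fold rise, and 1.97 ± 0.102 at 72 h. NDC80, the subunit that touches the microtubule, held 12.7, 14 and 11.6 CPM without Dox, 59.3, 59.6 and 60.3 at 24 h, 49.6, 54.1 and 55.1 at 48 h and 50.1, 48.6 and 53 at 72 h. The 24 h libraries were highest and the 48 h and 72 h libraries overlapped. Its log2 fold change was 2.24 ± 0.0732 (adjusted p = 8.01e-17) at 24 h and 1.997 ± 0.0736 at 72 h. NUF2, its partner, rose from 20.7 ± 1.12 CPM without Dox to 86.5 ± 2.1, 65 ± 2.13 and 79.1 ± 2.72 CPM at 24, 48 and 72 h. SPC24, the partner of SPC25, was at 9.13 ± 0.946, 36.6 ± 3.21, 34.5 ± 0.659 and 32.9 ± 1.79 CPM, and its Dox groups overlapped.

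In the MIS12 complex and its neighbour ZWINT, 2 of 4 genes were called higher at each time. ZWINT, a kinetochore protein that binds KNL1, lies at ENSG00000122952, chr10:56357227-56361273, minus strand and held 29.2, 27.7 and 31.2 CPM without Dox, 146, 139.7 and 136 at 24 h, 107, 104 and 113 at 48 h and 57.3, 66.3 and 69.4 at 72 h. The 4 groups did not overlap, and each later Dox time was lower than the one before. From No Dox the log2 fold change came to 2.25 ± 0.0701 at 24 h (adjusted p = 3.28e-17), 1.88 ± 0.0703 at 48 h and 1.13 ± 0.0713 at 72 h, where the adjusted p was 8.01e-12. DSN1, a MIS12 subunit that Aurora B phosphorylates, held 12, 14.3 and 13 CPM without Dox, 33.8, 31.1 and 31 at 24 h, 34.6, 29.9 and 37 at 48 h and 27.6, 29.1 and 30.5 at 72 h. The Dox libraries lay above No Dox at every time, with a log2 fold change of 1.3 ± 0.0893 at 24 h (adjusted p = 2.45e-11).

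NSL1 and PMF1, the other MIS12 subunits listed, rose by less than 2-fold. NSL1 held 24.7, 23.9 and 22.9 CPM without Dox, 42.8, 45.6 and 47.3 at 24 h, 39.6, 39.6 and 45.1 at 48 h and 30.6, 31.9 and 32.6 at 72 h. The 24 and 48 h libraries overlapped and lay above the 72 h libraries, with log2 fold changes of 0.92 ± 0.0698 at 24 h (adjusted p = 1.25e-10) and 0.41 ± 0.0713 at 72 h (adjusted p = 3.22e-05). PMF1 held 40.3, 38.6 and 39.2 CPM without Dox, 65.4, 55.5 and 61.1 at 24 h, 60.4, 56.5 and 55.4 at 48 h and 49.3, 56.2 and 60.8 at 72 h. All Dox libraries lay above No Dox and the Dox groups overlapped, with a log2 fold change of 0.62 ± 0.0752 at 24 h (adjusted p = 1.93e-07). PMF1 shares exons with the readthrough gene PMF1-BGLAP, and the SD of its count from shared reads was at most 1.73% of the count.

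Of 7 spindle checkpoint genes, 5 were called higher at all 3 times (BUB1, BUB1B, MAD2L1, TTK and ZWILCH). BUB1, the kinase that marks centromeric histone H2A and recruits other checkpoint proteins, held 39.6, 42.4 and 37.9 CPM without Dox, 178, 190.2 and 178 at 24 h, 138, 142 and 146 at 48 h and 172, 179.9 and 174 at 72 h. The 24 h and 72 h libraries overlapped and lay above the 48 h libraries. For BUB1 the log2 fold change reached 2.19 ± 0.0549 at 24 h (adjusted p = 9.18e-19), 1.83 ± 0.0549 at 48 h and 2.13 ± 0.0548 at 72 h. ZWILCH, a subunit of the RZZ complex that brings dynein to kinetochores, held 20, 21.3 and 21.1 CPM without Dox, 77.2, 82.3 and 81.2 at 24 h, 66.5, 69.9 and 68 at 48 h and 53, 49.2 and 51.2 at 72 h. The 4 groups did not overlap and the log2 fold change went from 1.95 ± 0.0601 at 24 h (adjusted p = 2.76e-17) to 1.3 ± 0.0611 at 72 h. MAD2L1, whose protein MAD2 blocks CDC20, rose from 49.1 ± 2.7 CPM without Dox to 158 ± 7.5, 139.8 ± 4.28 and 152 ± 4.3 CPM at the Dox times.

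BUB3 and MAD1L1 were the checkpoint genes not called. BUB3, which brings BUB1 and BUBR1 to the kinetochore and was the most abundant checkpoint gene per length without Dox, held 161, 160.4 and 163 CPM without Dox, 279, 287 and 270.4 at 24 h, 234, 243 and 232 at 48 h and 244, 252 and 251 at 72 h. Every Dox library lay above No Dox, with log2 fold changes of 0.79 ± 0.0441 at 24 h (adjusted p = 7.84e-13), 0.55 ± 0.0442 at 48 h and 0.62 ± 0.0441 at 72 h. MAD1L1, the anchor of MAD2 at kinetochores, held 15.4, 13.5 and 16.4 CPM without Dox, 30.8, 22.8 and 25.2 at 24 h, 23.1, 22.2 and 23.5 at 48 h and 21.1, 21.2 and 20.3 at 72 h. The 24 h libraries spread most, the first of them standing above the other two, and all Dox libraries lay above No Dox. The log2 fold change was 0.8 ± 0.0986 at 24 h (adjusted p = 2.71e-07) and 0.46 ± 0.1 at 72 h (adjusted p = 0.000372).

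CENPE, a kinesin that carries chromosomes towards the spindle equator, and CENPF, a large protein of the outer kinetochore corona, were both called higher at all times. CENPE held 39.4, 40.9 and 38.6 CPM without Dox, 114, 130.1 and 120.4 at 24 h, 90.2, 90.8 and 97.5 at 48 h and 106, 116 and 104 at 72 h. The 48 h libraries lay below those of 24 and 72 h, which overlapped, and the log2 fold change was 1.62 ± 0.0631 at 24 h (adjusted p = 1.68e-15). CENPF held 226, 216 and 213 CPM without Dox, 483, 531 and 503 at 24 h, 499, 552 and 576 at 48 h and 596, 658 and 573 at 72 h. Its lowest Dox library was more than 2 times its highest No Dox library, and the 72 h libraries lay above the 24 h libraries. Its rise reached a log2 fold change of 1.21 ± 0.0597 at 24 h (adjusted p = 8.51e-14), 1.31 ± 0.0597 at 48 h and 1.48 ± 0.0599 at 72 h.

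The SKA complex helps the NDC80 complex hold on to shortening microtubules, and 2 of its 3 genes were called higher at each time. SKA3, at ENSG00000165480, chr13:21153595-21176552, minus strand, held 10.6, 12.4 and 11.2 CPM without Dox, 75.4, 79.8 and 77.3 at 24 h, 56.7, 56.4 and 52.4 at 48 h and 38.8, 43.2 and 42.9 at 72 h. The 4 groups did not overlap and stood in the order 24 h, 48 h, 72 h and No Dox. A log2 fold change of 2.77 ± 0.0729 at 24 h (adjusted p = 2.07e-18), a 6.81-fold rise, was the largest of the 42 genes, and it was 1.87 ± 0.075 at 72 h. SKA1 held 7.92, 5.37 and 6.9 CPM without Dox, 38.5, 38.6 and 38.2 at 24 h, 37.1, 36 and 41 at 48 h and 28.7, 24.6 and 27.5 at 72 h. The 24 and 48 h libraries overlapped and lay above the 72 h libraries, with log2 fold changes of 2.49 ± 0.101 at 24 h (adjusted p = 3.33e-15) and 1.98 ± 0.104 at 72 h. SKA2 held 31.2, 32.6 and 33.1 CPM without Dox, 63.7, 64.6 and 61.6 at 24 h, 52.5, 51 and 48.5 at 48 h and 49.4, 52.6 and 50.8 at 72 h. Its Dox libraries lay above No Dox with log2 fold changes of 0.97 ± 0.058 at 24 h (adjusted p = 2.24e-12), 0.65 ± 0.0587 at 48 h and 0.66 ± 0.0585 at 72 h, short of the fold threshold, although without the third 24 h library the value at 24 h was 1.004 and SKA2 was called.

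All 3 chromosomal passenger genes were called higher at each time. CDCA8, whose protein borealin targets the complex to the centromere, held 16.8, 17.6 and 19.5 CPM without Dox, 102, 97.7 and 89.9 at 24 h, 72.5, 71.8 and 73.5 at 48 h and 65.2, 63.9 and 69.3 at 72 h. The 4 groups did not overlap, and the log2 fold change was 2.43 ± 0.0687 at 24 h (adjusted p = 6.52e-18) and 1.88 ± 0.0693 at 72 h. BIRC5, which encodes survivin, held 40, 44 and 37.4 CPM without Dox, 221, 209 and 207 at 24 h, 173, 157 and 160.3 at 48 h and 145, 138 and 146 at 72 h. Here too the groups did not overlap and each Dox time was lower than the one before, with log2 fold changes of 2.4 ± 0.062 at 24 h (adjusted p = 1.56e-18) and 1.82 ± 0.0618 at 72 h. INCENP, the scaffold that activates Aurora B, rose less, from 37 ± 1.83 CPM without Dox to 98.5 ± 2.44 CPM at 24 h, a log2 fold change of 1.41 ± 0.0585 (adjusted p = 4.62e-15).

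Shugoshins protect centromeric cohesin from early removal, and both genes were called higher at each time. SGO2 held 13.7, 12.1 and 12 CPM without Dox, 60.4, 63.4 and 58.6 at 24 h, 43.3, 45.3 and 45.8 at 48 h and 47.3, 52.2 and 45.7 at 72 h. The 24 h libraries lay above those of 48 and 72 h, which overlapped, and the log2 fold change was 2.27 ± 0.0744 at 24 h (adjusted p = 8.32e-17). SGO1 held 5.81, 5.56 and 7.59 CPM without Dox, 25.8, 25.6 and 25.3 at 24 h, 22.4, 24 and 25 at 48 h and 20.8, 24.9 and 23 at 72 h. Its Dox libraries lay above No Dox by a log2 fold change of 2.01 ± 0.105 at 24 h (adjusted p = 2.55e-13) and 1.85 ± 0.106 at 72 h.

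**Figure D2:**
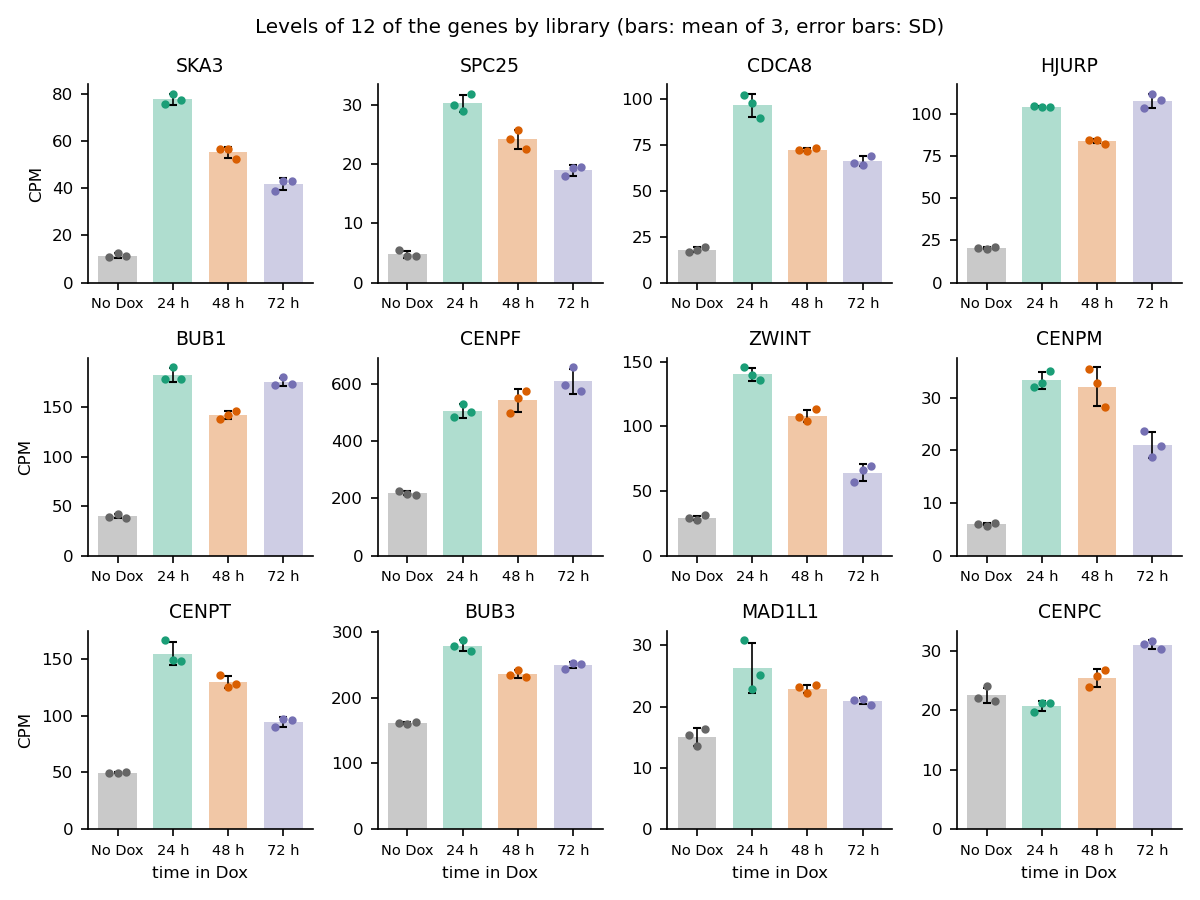
CPM in each library (points) of 12 of the genes, with the mean of 3 libraries (bars, from 0) and the SD (error bars) for No Dox and 24, 48 and 72 h in Dox. SKA3, SPC25, CDCA8, ZWINT and CENPT fell from 24 to 72 h, HJURP and BUB1 were lowest among Dox times at 48 h, and CENPC was highest at 72 h with 31.1, 31.7 and 30.3 CPM.

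The next question was how the genes moved between times in Dox, where a gene passed at an adjusted p under 0.05 with no fold threshold. From 24 to 48 h 21 genes fell and 2 rose, where 18.3% of all genes fell and 18.3% rose. From 48 to 72 h 15 fell and 8 rose, beside 20.1% and 18.6% of all genes. Between 24 and 72 h 26 fell and 4 rose, beside 30.2% and 30.5% of all genes. With a log2 difference of at least 0.58 as well, 10 fell and 1 rose over that interval, beside 11.4% and 15.5% of all genes. The highest group mean was at 24 h for 33 genes, at 48 h for 4 and at 72 h for 5.

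ZWINT had the largest change between 24 and 72 h, a log2 difference of -1.12 ± 0.065 (adjusted p = 7.02e-12), so that 50.1% of its log2 rise at 24 h was left at 72 h. SKA3 followed at -0.9 ± 0.0624 (adjusted p = 1.28e-10), CENPT at -0.71 ± 0.0556 (adjusted p = 7.71e-10) and SPC25 at -0.68 ± 0.0806 (adjusted p = 3.68e-07). Of the log2 rise of CENPT 56.4% was left, and of that of CENPQ 42.4%, on the log2 scale the lowest share among the 35 genes called at 24 h. Shares of the rise in CPM are not given and can rank differently. The 7 genes that fell at both steps were CENPO, CENPT, SPC25, ZWINT, ZWILCH, SKA3 and BIRC5. The first fall of CENPO failed the test in 7 alternatives, and the second fall of BIRC5 failed it without the first 48 h library (-0.14).

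HJURP, NUF2, BUB1 and CENPE fell from 24 to 48 h and rose again from 48 to 72 h. The 2 log2 differences were -0.32 ± 0.0489 and 0.36 ± 0.0487 for HJURP (adjusted p = 3.16e-05 and 6.97e-06). For BUB1 they were -0.36 ± 0.0501 and 0.31 ± 0.0501 (adjusted p = 8.41e-06 and 6.7e-05), for NUF2 -0.41 and 0.28, and for CENPE -0.39 and 0.23. These 4 were singled out after their values were seen, as were BUB1B, CENPF and TTK, which rose from 48 to 72 h without a change passing the test before. TTK, the kinase MPS1 that starts checkpoint signalling, held 23.4, 22.3 and 24.9 CPM without Dox, 74.9, 72.1 and 72.6 at 24 h, 79.7, 79.4 and 72.4 at 48 h and 84.9, 91.5 and 86.7 at 72 h. The 72 h libraries lay above all others, and the log2 difference from 48 h was 0.18 ± 0.0565 (adjusted p = 0.0147). BUB1B, the gene of BUBR1, moved by 0.15 ± 0.0558 (adjusted p = 0.0391) and CENPF by 0.17 ± 0.058 (adjusted p = 0.027). Without the second 72 h library these 3 did not pass, which left 5 of the 8. The rise of BUB1B also failed the test without the third 72 h library or without any 1 of the 48 h libraries, and that of TTK failed without the third 48 h library and with effective lengths in edgeR or DESeq2. The rise of CENPF failed without the first 48 h library, and with effective lengths its difference was -0.052 in edgeR and -0.043 in DESeq2.

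CENPC rose at both steps, by 0.3 ± 0.0736 and 0.28 ± 0.0707 (adjusted p = 0.003 and 0.00312). CENPH, another CCAN subunit, rose from 40.2 ± 2.67 CPM at 24 h to 49.2 ± 2.57 CPM at 48 h, a log2 difference of 0.29 ± 0.0743 (adjusted p = 0.00384), and stood at 49 ± 0.918 CPM at 72 h. In 8 genes neither step passed the test, namely CENPA, MIS18A, CENPW, SPC24, PMF1, MAD1L1, INCENP and SGO1. The remaining genes fell at 1 step only. In 10 of them the fall passed between 24 and 48 h (OIP5, CENPI, CENPK, CENPL, NDC80, BUB3, MAD2L1, SKA2, CDCA8 and SGO2). In 8 it passed between 48 and 72 h (CENPM, CENPN, CENPP, CENPQ, CENPU, DSN1, NSL1 and SKA1).

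**Figure D3:**
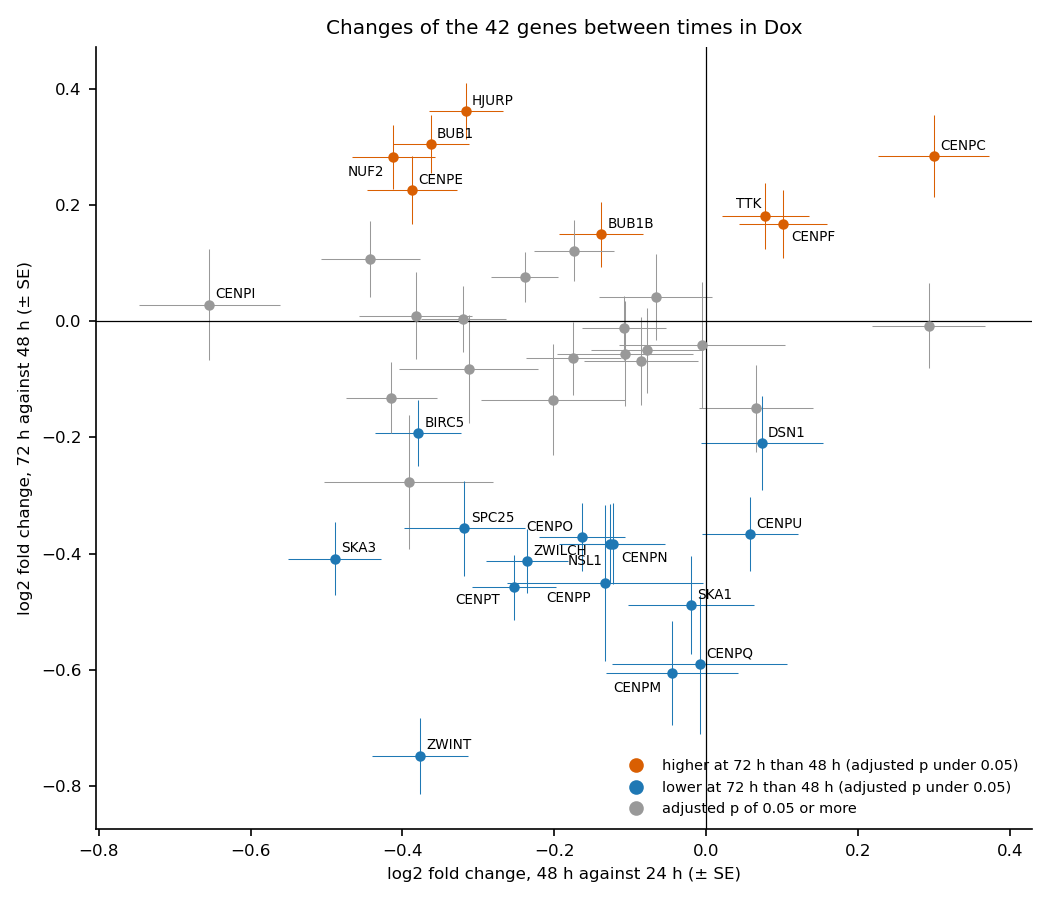
Log2 fold change of each of the 42 genes from 24 to 48 h (x axis) and from 48 to 72 h (y axis), with ± 1 SE bars. Blue genes fell and orange genes rose from 48 to 72 h at adjusted p under 0.05, and HJURP, NUF2, BUB1 and CENPE stand at the upper left while ZWINT is lowest at -0.75.

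To compare subunits that act together, the deposited TPM, a level per length, were set side by side. Without Dox the NDC80 complex stood at 9.53 ± 1.92 TPM (SD, n = 3) for NDC80, 16.4 ± 1.35 for NUF2, 8.21 ± 1.09 for SPC24 and 5.51 ± 0.605 for SPC25. At 24 h these were 44.6 ± 3.59, 67.6 ± 0.925, 30.6 ± 2.27 and 34.1 ± 1.35 TPM. NUF2 had the highest mean of the 4 in every group, and SPC25, lowest without Dox, overlapped SPC24 within their SDs at 48 h. In the SKA complex, SKA2 was at 42.7 ± 3.21 TPM without Dox, SKA1 at 4.2 ± 0.795 and SKA3 at 5.61 ± 0.38. At 24 h they stood at 88.3 ± 8.91, 24.7 ± 1.35 and 38.1 ± 2.01 TPM, so that SKA2 remained the highest while it rose by the smallest factor.

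Among CENP-A factors, CENPA was at 11.6 ± 1.41 TPM without Dox and 52.2 ± 3.57 at 24 h, and HJURP at 9.25 ± 0.884 and 47 ± 1.47. In both groups CENPA and HJURP differed by little more than their SDs, whereas OIP5 was lower at 4.06 ± 0.165 and 19.8 ± 4.17 TPM. At 48 h CENPA stood at 50.7 ± 3.46 TPM and HJURP at 39 ± 1.06, without overlap of libraries. At 72 h they were at 56 ± 2.72 and 52.2 ± 3.87 TPM. In the passenger complex BIRC5 was at 22 ± 1.25 TPM without Dox and 121 ± 2.62 at 24 h, INCENP at 18 ± 0.261 and 47.5 ± 5.83, and CDCA8 at 9.93 ± 0.761 and 54.5 ± 3.5. CDCA8, below INCENP without Dox, had the higher mean of these 2 at 24 h, within their SDs. Among checkpoint genes BUB3 was highest at 152 ± 7.07 TPM without Dox and 264 ± 19.6 at 24 h, followed by MAD2L1 at 30.8 ± 4.26 and 106 ± 6.89. MAD1L1, at 10.4 ± 1.21 and 17.8 ± 2.42 TPM, had the lowest mean of the 7 at 24 h, where ZWILCH stood at 32.7 ± 1.05.

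**Figure D4:**
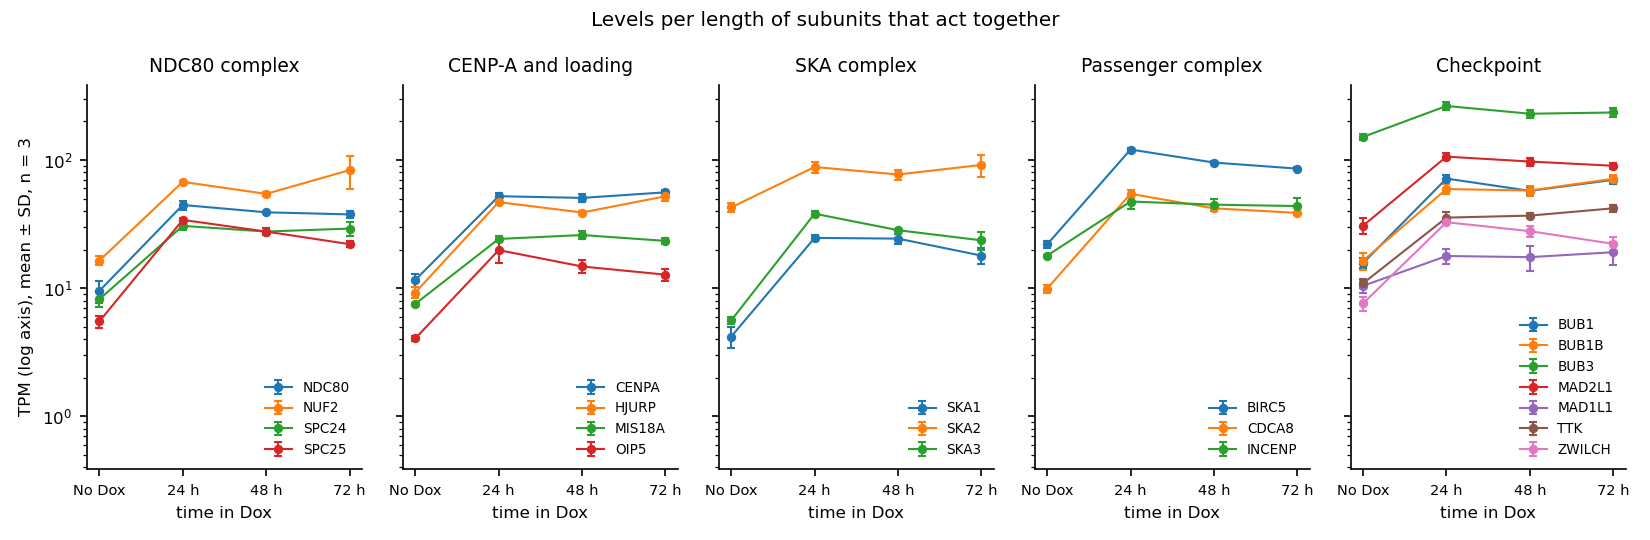
Deposited TPM (log axis) of subunits in 5 assemblies, as mean ± SD of 3 libraries in No Dox and at 24, 48 and 72 h in Dox. SKA2 started highest in its panel and rose least at 24 h, BUB3 was the highest checkpoint gene throughout, and SKA1, SKA3 and SPC25 started between 4.2 and 5.61 TPM.

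RSEM's effective length is an average over a gene's transcripts, so it moves when their shares move. It was compared with No Dox relative to the median ratio over all genes. At 24 h the ratio was beyond 1.2-fold for 3 of the 42 genes, where it was for 12.5% of all genes tested. At 48 h it was for 4, beside 11.4%, and at 72 h for 7, beside 12.4%. These counts lie near the shares of all genes, so the genes below are described singly. The 3 genes at 24 h were CENPF, CENPP and CENPT. A p-value is given below only for genes past this cut, so the same values both picked and tested them.

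For CENPF the effective length was 7198, 6010.1 and 5882 nt without Dox, 3529.6, 4658 and 4122 nt at 24 h, 4286, 4529 and 4488 nt at 48 h and 5193, 4867 and 5295 nt at 72 h. Every Dox library lay below every No Dox library, and the relative ratio at 24, 48 and 72 h was 0.646, 0.696 and 0.807 (p = 0.1 at each time, two-sided exact permutation test, the smallest p that 3 against 3 can give). Its TPM was 3.7 times the No Dox level at 24 h where its CPM was 2.32 times, and at 72 h the factors were 3.66 and 2.79. Once effective lengths were put into the edgeR fit, the log2 difference of CENPF between 72 and 48 h was -0.052 in place of 0.17, and that between 72 and 24 h was -0.072 in place of 0.27.

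For CENPT the effective length was 1499, 1527 and 1535 nt without Dox, 1163, 1136 and 1049 nt at 24 h, 1127, 1082 and 1075 nt at 48 h and 985, 1075 and 1048 nt at 72 h. The Dox libraries lay below No Dox without overlap, at relative ratios of 0.735, 0.719 and 0.684 (p = 0.1 each, exact permutation test). With effective lengths in the fit, CENPT was called at 72 h too, with a log2 fold change of 1.44 in DESeq2 and 1.45 in edgeR.

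For CENPP the No Dox libraries already spread from 2556 to 6086 nt. The relative ratio was 0.572, 0.614 and 0.44 at 24, 48 and 72 h (p = 0.1, 0.3 and 0.1, exact permutation test). CENPP was called at all 3 times once lengths were in the fit, with log2 fold changes of 1.18 to 1.47 in edgeR and DESeq2. CENPO passed 1.2-fold at 48 and 72 h, with ratios of 0.791 and 0.794 (p = 0.2 and 0.3, exact permutation test). At 72 h it was joined by NUF2 at 0.825, MAD1L1 at 0.806 and SKA2 at 0.798 (p = 0.1, 0.2 and 0.1, exact permutation test). For NUF2 and SKA2 a single 72 h library stood far below the other two, at 950.5 nt in the second for NUF2 and 543 nt in the third for SKA2, and leaving out 1 library put the ratios between 0.774 and 0.922 for NUF2 and between 0.733 and 0.895 for SKA2. With lengths in the fit, the differences of NUF2, MAD1L1 and SKA2 between 72 and 24 h turned from -0.13, -0.34 and -0.32 to 0.23, 0.026 and 0.013 in edgeR, none of them past the test. SKA2 at 72 h against No Dox then stood at 1.006 in edgeR, where it was called, and at 0.994 in DESeq2, where it was not.

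**Figure D5:**
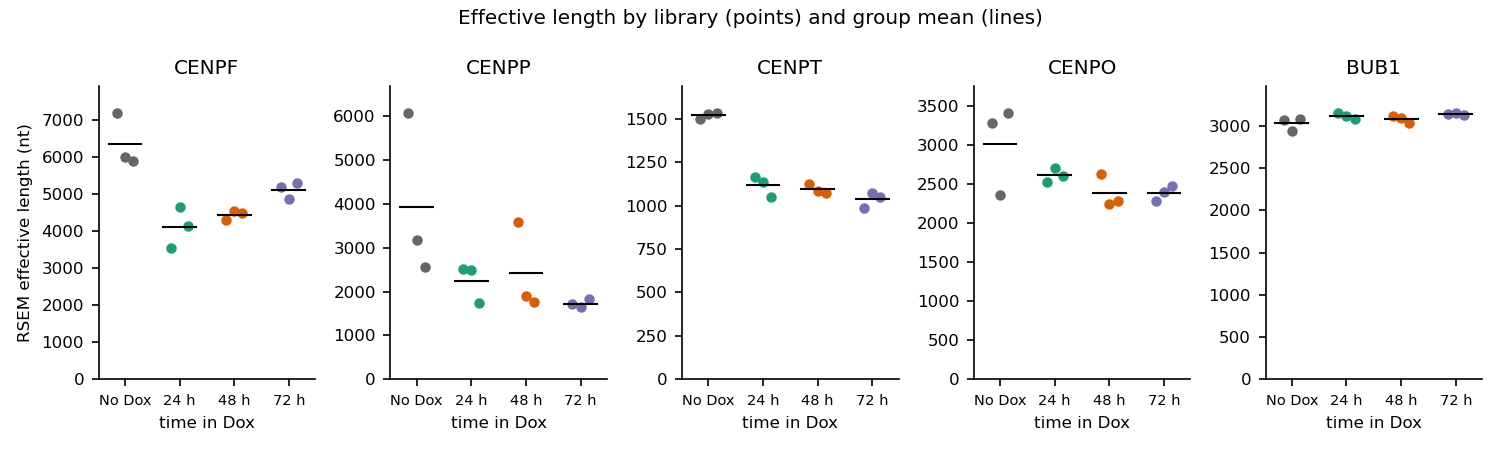
RSEM effective length in nucleotides in each library (points) with the group mean (lines) for CENPF, CENPP, CENPT, CENPO and, for comparison, BUB1, in No Dox and at 24, 48 and 72 h. CENPF and CENPT were shorter in every Dox library than in every No Dox library, CENPP and CENPO varied among No Dox libraries, and BUB1 stayed between 2946 and 3158 nt.

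Promoter motifs were set beside the calls at 24 h, again as a description. Of the 29 called genes with a window, 19 held a CHR, 19 a CCAAT box, 13 both and 4 neither. CENPI is among those with neither, and its window begins at chrX:101100808, inside the gene, which starts at 101098188. Of the 6 genes not called that had a window, 1 held a CHR (CENPC), 4 a CCAAT box and 2 neither. The CCAAT box of CENPP lies in a window that begins at chr9:92600007, also inside the gene, which starts at 92325953. Among the printed stretches, which were picked after the levels were seen, CENPC holds both motifs and was at -0.12 at 24 h. SKA3, with a CHR 3 bases before its start and no CCAAT box, was at 2.77.

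Other genes of the same machinery were read from further lists. Of 22 other kinetochore and centromere genes, 10 were called higher and 1 lower at 24 h, 10 and 0 at 48 h, and 9 and 0 at 72 h, with medians of 0.93, 0.78 and 0.82. Of all genes tested 12%, 10.6% and 10.2% were called higher and 17.7%, 14.4% and 12.3% lower at these times, and these shares are the background for the next lists too. The largest changes at 24 h were in ERCC6L, a translocase of the centromere, at 2.19 ± 0.0997 (adjusted p = 2.23e-14), AURKB, the kinase of the passenger complex, at 2.16 ± 0.0728 (adjusted p = 1.28e-16), and KNL1, the scaffold that ZWINT binds, at 2.02 ± 0.0948 (adjusted p = 3.75e-14). CLASP1, which stabilises microtubules, was the one called lower at 24 h, at -1.09 ± 0.0597 (adjusted p = 5.43e-13), and stood at -0.16 at 72 h. Of 15 cohesin genes, 5 were called higher at 24 and 48 h and 4 at 72 h, with 0 called lower. With no fold threshold, 10 passed as higher and 4 as lower at 24 and 48 h, and 9 and 2 at 72 h. The 15 cohesin genes had medians of 0.37, 0.28 and 0.32 at these times. Their largest changes at 24 h were in ESCO2, which acetylates cohesin, at 2.36 ± 0.113, CDCA5, the cohesin protector sororin, at 2.1 ± 0.0614, and ESPL1, the protease separase, at 1.79 ± 0.0535 (adjusted p = 5.29e-14, 1.11e-17 and 1.6e-17).

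Of 16 regulators of G2/M transcription, 3 were called higher and 1 lower at 24 and 48 h, and 2 higher and 0 lower at 72 h, which lies near the share of all genes called higher (12% at 24 h and 10.2% at 72 h). MYBL2, which encodes B-MYB, was at 2.99 ± 0.0669, 2.56 ± 0.0666 and 2.14 ± 0.0664 (adjusted p = 1.5e-19 at 24 h). FOXM1 was at 2.33 ± 0.0524, 1.99 ± 0.0523 and 1.66 ± 0.0523 (adjusted p = 1.68e-19 at 24 h). RBL2, the gene of p130 in the repressive DREAM complex, was the one called lower, at -1.4 ± 0.0683 at 24 h (adjusted p = 6.96e-14) and -1.06 ± 0.067 at 48 h (adjusted p = 7.28e-12), and stood at -0.42 ± 0.0649 at 72 h. LIN52, a MuvB subunit, was the third called higher, at 1.09 ± 0.118 at 24 h (adjusted p = 3.58e-08).

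By GENCODE version 44, exons of 5 of the 42 genes overlap a gene on the same strand and those of 13 overlap a gene on the other strand. The kit kept strand, but the strand setting of RSEM is not given in the sources used here, so reads of such pairs may have been shared. Among the genes described above these include HJURP, OIP5, CENPT, CENPP and ZWILCH (other strand) and BUB1B, CENPA, MAD1L1 and PMF1 (same strand). The SD of the count from shared reads was at most 1.73% of the count for PMF1 and 0.0168% for BUB1B. It was 0% in every library for the other genes named here.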

How the data were processed

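Poly(A)-selected RNA of 12 libraries was sequenced as strand-specific paired-end reads. Per the study's methods, the authors mapped reads on GRCh38 by STAR and estimated gene levels with RSEM for GENCODE version 22 (the sources used here give neither tool's version nor RSEM's strand setting). The deposited gene tables hold expected counts, TPM, FPKM and effective lengths (in nucleotides, another deposited unit) for 60483 genes. An expected count need not be whole, because RSEM divides reads that match several transcripts, so counts were rounded. FPKM was not used here. Names were given by Ensembl identifier for 56321 rows, and coordinates came from GENCODE version 44 on GRCh38.

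Genes were filtered with filterByExpr (14822 kept), scaled with TMM and fitted over all 12 libraries with a mean per group by edgeR 4.0.16 (R 4.3.3, limma 3.58.1). Each SE was derived from the quasi-likelihood F. The biological coefficient of variation was 5.71%. With totals of 15382564 to 26570132 counts per library, counting error covers only part of the spread: replicates differed by 2.56 to 8.62 times the chi-square per degree of freedom that counting alone gives, so no pair held the same counts within sampling noise, which does not show that replicates were separate cultures. Effective lengths were compared by a two-sided exact permutation test, 3 against 3, and TPM and promoter motifs (RefSeq, GRCh38.p14) were described without a test. Motif and figure steps used Python 3.11.15 (pandas 2.3.3, scipy 1.17.1, matplotlib 3.10.9). The fit was run on simulated counts drawn for all 12 libraries from the No Dox means, with or without genes raised at 24 h.

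Alternatives were DESeq2 1.42.0, effective lengths in edgeR or DESeq2, DESeq2 size factors, upper-quartile factors, no filter on low counts, a filter of at least 1 CPM in 3 libraries, only the groups compared, a replicate block, glmTreat, and leaving out each library. The genes, the other lists, the tests and the alternatives were chosen with earlier results of these data known. Values in every library are given for the 2 genes with the largest log2 fold change at 24 h in each of 9 functional groups, for each gene not called at 24 h, and for genes with a log2 change of at least 0.58 between 2 Dox times that passed the test (the 4 largest per step). The other lists are given by counts, the 3 largest changes at 24 h and each gene called lower. One marker list is not reported here.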

Additional observations from a re-analysis of the deposited data

Results flagged for a closer look

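For 11 of the 42 genes the effect against No Dox at 72 h differed from that at 24 h by a log2 value of at least 0.58 in either direction (edgeR's quasi-likelihood test of 72 h against 24 h, Benjamini-Hochberg adjusted over 14822 genes). In 10 of them the effect was smaller at 72 h, and of all genes tested 11.4% were lower and 15.5% higher by that measure. The difference was -1.12 for ZWINT (adjusted p = 7.02e-12), -0.90 for SKA3 (adjusted p = 1.28e-10) and -0.71 for CENPT (adjusted p = 7.71e-10). It was -0.68 for SPC25, -0.67 for OIP5, -0.65 for CENPM and -0.65 for ZWILCH, with adjusted p of 3.68e-07, 3.17e-05, 2.43e-06 and 2.46e-09. CENPI, CENPQ and CENPP, all of the inner kinetochore, differed by -0.625, -0.60 and -0.58 (adjusted p = 6.13e-06, 0.000208 and 0.000745).

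CENPC was the exception, with an effect that was higher at 72 h by 0.58 (adjusted p = 5.9e-07), and every 72 h library lay above every 24 h library. With effective lengths in the fit the difference of CENPP was -0.26 to -0.28 and did not pass the test. WWTR1 itself was higher at 72 h than at 24 h by 0.16 ± 0.0632 (adjusted p = 0.0301). No gene among the 42 had an effect of opposite direction at 24 and 72 h with both past the test.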

How the results depend on the processing

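Counts against No Dox held: over 16 alternatives, 34 to 36 of the 42 genes were called higher at 24 h, 33 to 36 at 48 h and 29 to 36 at 72 h, and 0 were called lower. Leaving out each library gave 34 to 36, 34 to 35 and 33 at the 3 times. Between Dox times, genes that fell numbered 14 to 22 (48 against 24 h), 12 to 16 (72 against 48 h) and 20 to 26 (72 against 24 h). Genes that rose from 48 to 72 h numbered 5 to 8 when each library was left out, with 5 without the second 72 h library. Effective lengths in edgeR or DESeq2 left 1 gene that rose from 24 to 48 h in place of 2, and 2 that rose from 24 to 72 h in place of 4, since CENPH no longer passed in either comparison and CENPF and TTK no longer passed from 24 to 72 h while BUB1B did.

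With effective lengths some differences also changed direction, none past the test. In edgeR and DESeq2, CENPF was at -0.052 and -0.043 between 72 and 48 h and at -0.072 and -0.081 between 72 and 24 h. Between 72 and 24 h NUF2 was at 0.235 and 0.229, MAD1L1 at 0.026 and 0.022 and SKA2 at 0.013 and 0.0046. Testing the 2-fold threshold itself (glmTreat) ended the calls of CENPQ at 24 and 48 h, CENPK at 48 and 72 h, and CENPL, DSN1 and ZWINT at 72 h. Upper-quartile factors ended those of CENPQ (0.99 and 0.98). The fall of DSN1 between 72 and 48 h failed in 11 alternatives, that of NDC80 between 48 and 24 h in 8, that of CENPO between 48 and 24 h in 7 (-0.176 to -0.028), that of CENPE between 72 and 24 h in 5, and that of NUF2 between 72 and 24 h in 9 (-0.149 to -0.1) beside the 2 with lengths.

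On average, libraries with the same replicate number did not deviate together, which does not settle whether some groups were paired. Deviations from group means correlated at -0.23 to 0.391 in 18 same-number pairs, 4 of them over 0.1, and the mean was 0.0276 against -0.0145 in other pairs. A replicate block gave 35, 35 and 33 genes called higher. Groups of 3 libraries and the absence of a Dox-only control limit what these tests can separate, and low genes such as OIP5, CENPP and CENPQ, at under 20 CPM throughout, carry wide errors.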
